A study of Homo sapiens with 22 samples.

Results

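The tripartite motif (TRIM) genes encode a large family of ubiquitin ligases. Members were the protein-coding genes whose GENCODE symbol is TRIM, a number and at most 1 letter, each represented by its protein-coding transcript with the highest mean count, with a mean of at least 0.5 CPM, a count scaled to the library total, over the libraries of 0 to 10 h. Of 73 such genes, 37 reached this level, among 15111 genes tested in all, of which 11659 were protein-coding. The other 36 genes were below it, 8 of them with no count at all. TRIM66 (0.595 CPM) and TRIM47 (0.705) were the lowest members, and TRIM46 (0.403) and TRIM73 (0.388) were the highest of those left out.

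The libraries came from BRIC-Seq, in which HEK293T cells, a human embryonic kidney line, were fed 150 µM bromouridine (BrU) for 24 h, washed, and chased without BrU, after which labelled RNA was pulled down with an antibody and sequenced. The cells carried either a control short hairpin, shControl, or one that targets ZNF598, shZNF598. ZNF598 is a ubiquitin ligase that senses collided ribosomes. Whether each set of cells was a clone or a pool is not given in the sources used here. There were 2 libraries per hairpin at 0, 2, 4, 6 and 10 h and 1 at 24 h, 22 in all. The 24 h libraries entered only the scaling factors, half-lives, values without a test and 1 alternative window. The question was whether the knockdown of ZNF598 changes mRNA decay. The labels do not say whether replicates were separate cultures, so p-values measure only the spread between these libraries.

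A TRIM protein carries a RING finger, B-box zinc fingers and a coiled coil at its N terminus. The RING finger binds an E2 enzyme charged with ubiquitin, the coiled coil makes dimers, and the C-terminal domain, most often a PRY-SPRY fold, binds the substrate. Some members, such as TRIM5, TRIM21 and TRIM25, act in antiviral defence, TRIM28 is a chromatin corepressor recruited by KRAB zinc finger proteins, and the NHL-domain members include the RNA-binding protein TRIM71.

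Libraries of 0 to 10 h held 52352359 to 96963584 counts, and those of 24 h held 21220829 (shControl) and 40157613 (shZNF598). ZNF598 was at 4.01 to 8.02 CPM in the 10 shControl libraries of 0 to 10 h and at 0.411 to 1.03 in the 10 shZNF598 libraries, with a change of -3.08 at 0 h (log2, SE 0.191, adjusted p = 3.4e-10, edgeR quasi-likelihood test). At 24 h the values were 4.69 and 2.27. Of the markers of the cell line, VIM (130.5 CPM), KRT8 and KRT18 were detected, while PAX2 (0.0415) and LHX1 (0.163) were near 0, and the 6 markers of blood, liver, muscle and keratinocytes were at or below 0.313. The 2 shControl libraries of 0 h differed from each other more than any other pair, with a chi-square per degree of freedom of 25.4 against 3.56 to 16.5. Their correlation of log2 scaled levels was 0.982 against at least 0.991.

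Among the members, TRIM28 was the most abundant per transcript length. It was at 16.6 and 18.8 CPM per kilobase in the 2 shControl libraries of 0 h. TRIM65, which modifies the viral RNA sensor MDA5, followed at 6.60 and 8.56, and TRIM27 at 6.71 and 8.16, so that these neighbours overlapped. TRIM37, a ligase of peroxisomes and centrosomes, was at 4.77 and 4.62, and TRIM26 at 3.60 and 5.05, which also overlapped. The lowest were TRIM38 (0.443 and 0.426), TRIM9 (0.382 and 0.409) and TRIM66 (0.0351 and 0.0107). These values and those of ZNF598 above are CPM after scaling by the trimmed mean of M values (TMM). Levels of members from here on are on the same scale but not per length. In bulk RNA, fewer cells of a kind and less RNA per cell cannot be told apart.

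TRIM71 is a textbook target of the let-7 microRNA, and its sequence is shown because its level is among those that differed most between the hairpins. Its row is ENST00000383763.6 at chr3:32817997-32897824 on the plus strand (GRCh38), with 4 exons and a 3′ untranslated region (UTR) of 6013 bases. The mature microRNA, from RefSeq (GRCh38.p14), is given with its seed, bases 2 to 8, in capitals. The DNA letters CTACCTC, the reverse complement of the seed, are in capitals in the TRIM71 sites, which were read in the direction of the transcript.
hsa-let-7a-5p: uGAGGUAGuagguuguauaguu
TRIM71 site 1, chr3:32891972-32892000: ttgcttaagtcCTACCTCatctttatttt
TRIM71 site 2, chr3:32892052-32892080: ataatttctatCTACCTCataaatcttta
TRIM71 site 3, chr3:32894505-32894533: ggtcagagataCTACCTCtttgtcctcag
TRIM71 site 4, chr3:32895809-32895837: ttgctgagtttCTACCTCacttgtggcaa
TRIM71 site 5, chr3:32895832-32895860: tggcaagtcatCTACCTCatgttagcatc
TRIM71 site 6, chr3:32895907-32895935: ggagtgggaagCTACCTCtaaaagaaatg

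The TRIM71 3′ UTR thus held 6 matches. Searched on the transcript strand, CTACCTC was found in 5 of 32 member 3′ UTRs (15.6%) and in 1125 of 9675 protein-coding 3′ UTRs (11.6%), and no 3′ UTR other than that of TRIM71 held as many as 6. TRIM13, TRIM38, TRIM41 and TRIM65 held 1 match each. The search covered rows whose transcript version matched the annotation, which left out TRIM4, TRIM8, TRIM32, TRIM36 and TRIM66. A match is a string of letters and was not tested as a site.

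Most TRIM mRNAs were lost from the labelled pool faster than the bulk of mRNA during the chase. The slope over 0 to 10 h, in log2 level per hour, was below 0 for 33 of 37 members in shControl and for 32 in shZNF598. In shControl 30 members had a negative slope at an adjusted p below 0.05 and 2 a positive one, against 41.5% and 31.1% of all genes. In shZNF598 these were 29 and 2, against 38.8% and 30.4%. The median slope of the members was -0.139 in shControl and -0.109 in shZNF598, beside -0.0274 and -0.0225 over all genes and -0.0499 and -0.0418 over protein-coding genes. With each library scaled by its total alone, the median of all genes moved to -0.105 and -0.0920 and the share of called genes with a positive slope from 42.8% to 21.1% in shControl and from 43.9% to 21.1% in shZNF598. The median of the members minus that of all genes was -0.112 in shControl and -0.0868 in shZNF598 under TMM, and -0.111 and -0.0856 under library totals. Over 0 to 24 h, 5 members had a call in each hairpin, 3 negative and 2 positive, and the median of the members minus that of all genes was -0.0144 in shControl and -0.00671 in shZNF598.

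**Figure D1:**
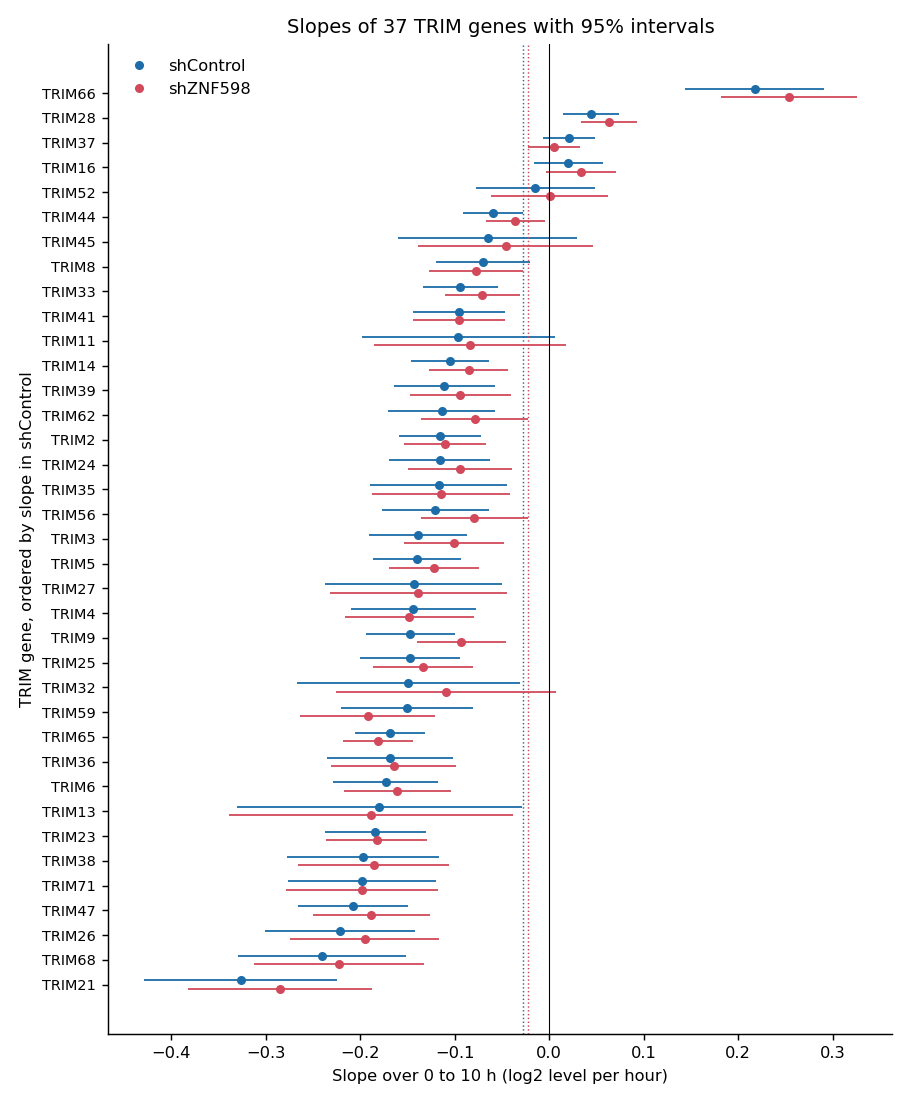
Slope of each of 37 TRIM genes over 0 to 10 h (x axis, log2 level per hour after TMM scaling) in shControl and shZNF598, with bars for 95% intervals from the edgeR fit and dotted lines at the median of all genes. TRIM21 lies lowest at -0.327 in shControl and TRIM66 highest at 0.218.

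TRIM21, the cytosolic antibody receptor, had the lowest slope in both hairpins. It was at 2.88 and 4.17 CPM in shControl and 3.54 and 3.25 in shZNF598 at 0 h, 2.37 and 2.81 against 2.62 and 2.26 at 2 h, 1.14 and 0.945 against 0.761 and 0.8701 at 4 h, 0.628 and 0.646 against 0.362 and 0.477 at 6 h, and 0.4496 and 0.461 against 0.648 and 0.625 at 10 h. Each library of 4 h or later was thus below each library of 0 h. Its slope was -0.327 (SE 0.0491, adjusted p = 6.1e-06) in shControl and -0.285 (SE 0.0468, adjusted p = 2.01e-05) in shZNF598, by the edgeR quasi-likelihood test, as are all adjusted p below.

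TRIM68, a PRY-SPRY ligase, was next. It was at 7.12 and 7.74 CPM in shControl and 7.36 and 7.38 in shZNF598 at 0 h, 5.66 and 5.902 against 5.702 and 6.504 at 2 h, 2.08 and 2.498 against 2.57 and 2.84 at 4 h, 1.32 and 1.17 against 1.82 and 1.62 at 6 h, and 2.02 and 1.42 against 1.84 and 1.95 at 10 h. Its slope was -0.241 (shControl) and -0.223 (shZNF598). TRIM26, another ligase of this class, had slopes of -0.222 and -0.195. It was at 12.7 and 17.8 CPM in shControl and 14.03 and 15.3 in shZNF598 at 0 h, 11.7 and 12.8 against 12.6 and 12.6 at 2 h, 5.77 and 5.87 against 5.21 and 6.41 at 4 h, 3.18 and 3.23 against 3.79 and 3.84 at 6 h, and 4.22 and 3.54 against 4.27 and 4.69 at 10 h. TRIM47 was measured on few reads and had fitted slopes of -0.208 and -0.188. Averaged over the 4 libraries of each time, it was at 1.14 CPM at 0 h, 0.371 at 6 h and 0.310 at 10 h. TRIM47 thus reached the limit of 0.5 CPM through its earlier libraries, so its fall is given as a description with no test. It is counted in the numbers of members called with a negative slope in either hairpin or called lower early or late. The same holds for these numbers in the PRY-SPRY class. It was at 1.15 and 1.48 CPM in shControl and 0.987 and 0.945 in shZNF598 at 0 h, 0.692 and 0.9745 against 0.774 and 0.729 at 2 h, 0.707 and 0.608 against 0.566 and 0.495 at 4 h, 0.3004 and 0.333 against 0.362 and 0.488 at 6 h, and 0.363 and 0.3404 against 0.249 and 0.289 at 10 h. For each of the 3 genes all libraries of 4 h or later lay below all libraries of 0 h.

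At the other end lay TRIM28, whose level at 10 h was above each library of 0 h in both hairpins under TMM. It was at 55.9 and 63.2 CPM in shControl and 57.3 and 56.6 in shZNF598 at 0 h, 57.5 and 55.6 against 58.3 and 53.3 at 2 h, 75.9 and 67.6 against 72.6 and 66.8 at 4 h, 75.1 and 80.8 against 80.2 and 85.6 at 6 h, and 76.9 and 73.99 against 73.02 and 89.96 at 10 h. Its slope of 0.0440 (SE 0.0144, adjusted p = 0.00961) in shControl was positive under TMM but -0.0330 (adjusted p = 0.0475) under library totals. The call was also lost without the replicate 1 libraries (adjusted p = 0.198), over 0 to 4 h (0.0776) and without the 0 h libraries (0.063). In shZNF598 the slope was 0.0632 (adjusted p = 0.000621), and -0.00607 (adjusted p = 0.716) under library totals. TRIM37 changed little. It was at 21.4 and 20.7 CPM in shControl and 19.6 and 20.3 in shZNF598 at 0 h, 22.7 and 22.9 against 19.9 and 20.7 at 2 h, 22.4 and 24.5 against 22.3 and 23.5 at 4 h, 25.8 and 26.5 against 25.9 and 23.1 at 6 h, and 22.3 and 25.6 against 20.1 and 19.4 at 10 h. Its slopes of 0.0207 (adjusted p = 0.161) and 0.00508 (adjusted p = 0.747) did not pass. The first turned to -0.0573 (adjusted p = 0.00245) under library totals, and it passed as positive with the size factors of DESeq2 (RLE scaling, adjusted p = 0.0119), by DESeq2 (0.00468), over 0 to 6 h (0.00956), by a linear trend of the group means (0.0486) and without shControl 10 h replicate 1 (0.0455).

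TRIM16, which has no RING finger, had slopes of 0.0203 and 0.0334 that did not pass, and the first turned to -0.0569 (adjusted p = 0.0047) under library totals. It passed as positive over 0 to 24 h (adjusted p = 0.000829) and with the longest transcript (0.014). TRIM16 was at 1.99 and 1.81 CPM in shControl and 1.76 and 1.74 in shZNF598 at 0 h, 1.57 and 1.88 against 1.55 and 1.25 at 2 h, 1.95 and 1.72 against 2.01 and 1.55 at 4 h, 2.17 and 1.96 against 1.72 and 1.92 at 6 h, and 2.02 and 2.103 against 1.94 and 2.12 at 10 h. TRIM16 has a near-identical copy, TRIM16L, so its counts are uncertain.

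TRIM66, a bromodomain protein related to TRIM28, had levels of 0.244 CPM at 0 h and 0.370 at 2 h, averaged over the 4 libraries of each time, and 1.30 at 10 h. It thus reached the limit of 0.5 CPM through its later libraries, so its rise is given as a description with no test, and it is counted in each number of members called with a positive slope or called higher early or late. It was at 0.375 and 0.115 CPM in shControl and 0.212 and 0.274 in shZNF598 at 0 h, 0.304 and 0.449 against 0.477 and 0.251 at 2 h, 0.7201 and 0.486 against 0.586 and 0.375 at 4 h, 0.8602 and 0.687 against 0.582 and 0.829 at 6 h, and 1.18 and 1.14 against 1.395 and 1.49 at 10 h. All libraries of 10 h lay above all earlier ones, on 9 to 84 reads a library. The fitted slope came to 0.218 with shControl and to 0.254 with shZNF598.

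The time courses of the members were of more than one shape, so 2 contrasts were added after the levels had been seen, the change from 0 to 4 h and from 4 to 10 h, averaged over the hairpins. From 0 to 4 h, 27 of 37 members were lower and 3 higher, against 32.3% and 31.9% of all genes, with a median change of -0.758 beside 0.0364 over all genes. From 4 to 10 h, 18 members were lower and 7 higher, against 38.8% and 35.7%, with a median of -0.282 beside -0.0486. Over protein-coding genes, 36.2% were lower and 30.6% higher early, with a median of -0.0066. In the late span these were 44.1% and 30.3%, with a median of -0.1455, nearer to the members (48.6% and 18.9%). Under library totals the median of all genes shifted to -0.134 for the early and -0.568 for the late change, and the called genes that were higher went from 49.7% to 30.2% and from 47.9% to 22.4%. The median of the members minus that of all genes stayed near -0.795 for the early and -0.234 for the late change under TMM, and was -0.796 and -0.232 under library totals. For the members the early calls then were 1 higher and 27 lower, and the late ones 4 higher and 30 lower.

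**Figure D2:**
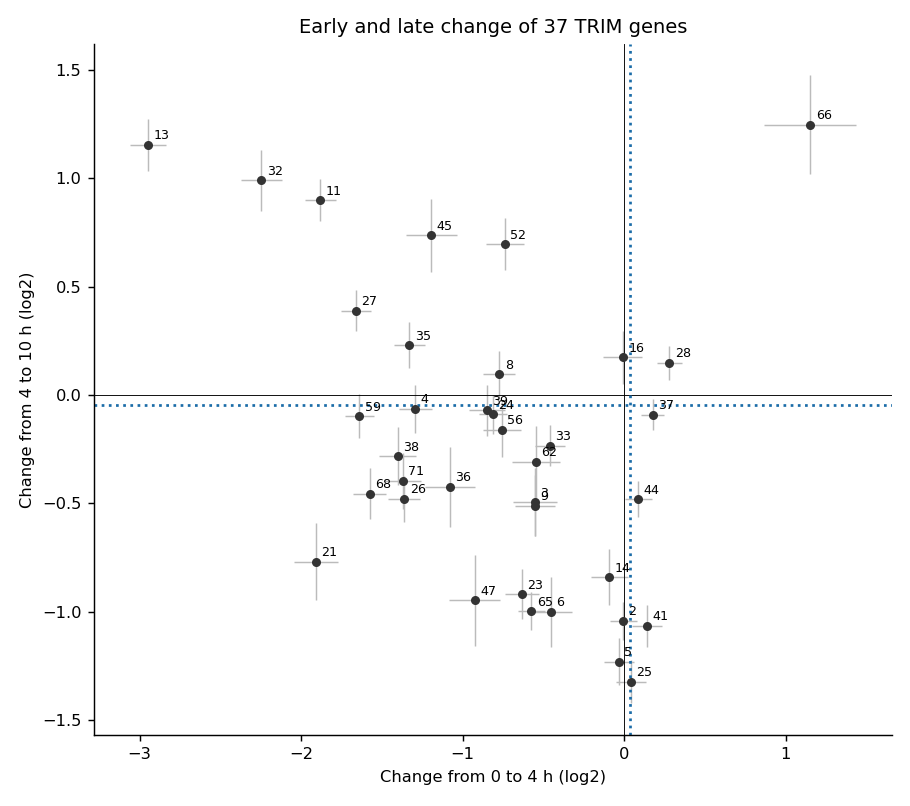
Change of 37 TRIM genes from 0 to 4 h (x axis, log2) and from 4 to 10 h (y axis, log2), averaged over both hairpins, with bars of 1 SE, dotted lines at the medians of all genes and gene numbers without the prefix TRIM. TRIM13 lies far left and high (-2.95 and 1.15), TRIM25 near 0 and low (0.04 and -1.32), and TRIM66 alone at upper right (1.15 and 1.25).

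A first shape was a steep early loss followed by a higher level at 10 h, called in 6 members (16.2%, beside 8.27% of all genes), namely TRIM11, TRIM13, TRIM27, TRIM32, TRIM45 and TRIM52. Of the 27 members lower early these were 6, beside 1249 of the 4883 genes lower early. Both changes use the 4 h libraries, so the early and late calls are not independent. TRIM13, a ligase of the endoplasmic reticulum membrane, showed this shape most. It was at 7.198 and 7.25 CPM in shControl and 8.501 and 8.78 in shZNF598 at 0 h, 2.62 and 3.06 against 3.68 and 3.89 at 2 h, 0.851 and 0.8102 against 1.14 and 1.39 at 4 h, 0.997 and 0.958 against 1.05 and 0.7605 at 6 h, and 2.196 and 1.98 against 2.54 and 2.405 at 10 h. All 10 h libraries lay above all libraries of 4 and 6 h and below those of 2 h. The early change was -2.95 (SE 0.110, adjusted p = 2.77e-16) and the late change 1.15 (SE 0.121, adjusted p = 6.56e-09). TRIM13 shares 818 exon bases with KCNRG on the same strand and 690 with DLEU2 on the other, and how reads were assigned there cannot be told apart.

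TRIM32, an NHL-domain ligase known from muscle, was at 5.503 to 6.33 CPM at 0 h, 0.959 to 1.54 at 4 h and 2.04 to 2.92 at 10 h over the 4 libraries of each time, with a late change of 0.99 (adjusted p = 7.8e-07). TRIM11, a PRY-SPRY ligase, was at 15.1 to 17.7 CPM at 0 h, 4.29 to 4.86 at 4 h and 7.39 to 10.1 at 10 h over the 4 libraries of each time. TRIM27 had an early change of -1.66 and a late change of 0.39. It was at 19.9 and 24.2 CPM in shControl and 21.9 and 21.2 in shZNF598 at 0 h, 16.99 and 18.6 against 15.4 and 15.7 at 2 h, 7.54 and 7.01 against 6.44 and 6.65 at 4 h, 5.43 and 5.71 against 5.43 and 6.63 at 6 h, and 10.2 and 8.29 against 8.04 and 9.67 at 10 h. Under library totals the late changes of TRIM11, TRIM13 and TRIM32 still passed (0.38, 0.64 and 0.47), those of TRIM45 (0.22) and TRIM52 (0.18) did not, and that of TRIM27 turned to -0.13.

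A second shape was a level course to 4 h and a loss afterwards, called in TRIM2, TRIM5, TRIM14, TRIM25, TRIM41 and TRIM44 (16.2%, beside 17.6% of all genes). TRIM25, which ubiquitinates the RNA sensor RIG-I, was at 11.9 to 14.2 CPM at 0 h, 11.7 to 14.5 at 4 h and 4.45 to 6.00 at 10 h. The libraries of 0 and 4 h thus overlapped and those of 10 h lay below. Its early change was 0.04 (95% interval -0.15 to 0.24) and its late change -1.32 (SE 0.0995, adjusted p = 1.74e-11). TRIM5, which restricts retroviral capsids, had a late change of -1.23, TRIM41 of -1.07 and TRIM2 of -1.04, while TRIM44, which lacks a RING finger, had -0.48.

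Of the other members, 12 were lower in both spans (32.4%, beside 14.6% of all genes), among them TRIM21, TRIM26, TRIM65, TRIM68 and TRIM71. Another 9 were lower early with no late call (24.3%, beside 9.47%), among them TRIM24, TRIM35 and TRIM59. Within those lower early, the first class held 12 of 27 members beside 2203 of 4883 genes. The second class held 9 of 27 members beside 1431 of 4883 genes. TRIM28 and TRIM37 were higher early only, TRIM16 had no call, and TRIM66, in the remaining class of higher in both spans, is described above. The early call of TRIM37 (0.18, adjusted p = 0.0347) was lost without shControl 0 h replicate 2, either shZNF598 library of 0 h, shControl 4 h replicate 2 or shZNF598 4 h replicate 2 (adjusted p of up to 0.199), and under library totals (adjusted p = 0.948). That of TRIM28 (0.28) was 0.11 with no call under library totals (adjusted p = 0.19).

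**Figure D3:**
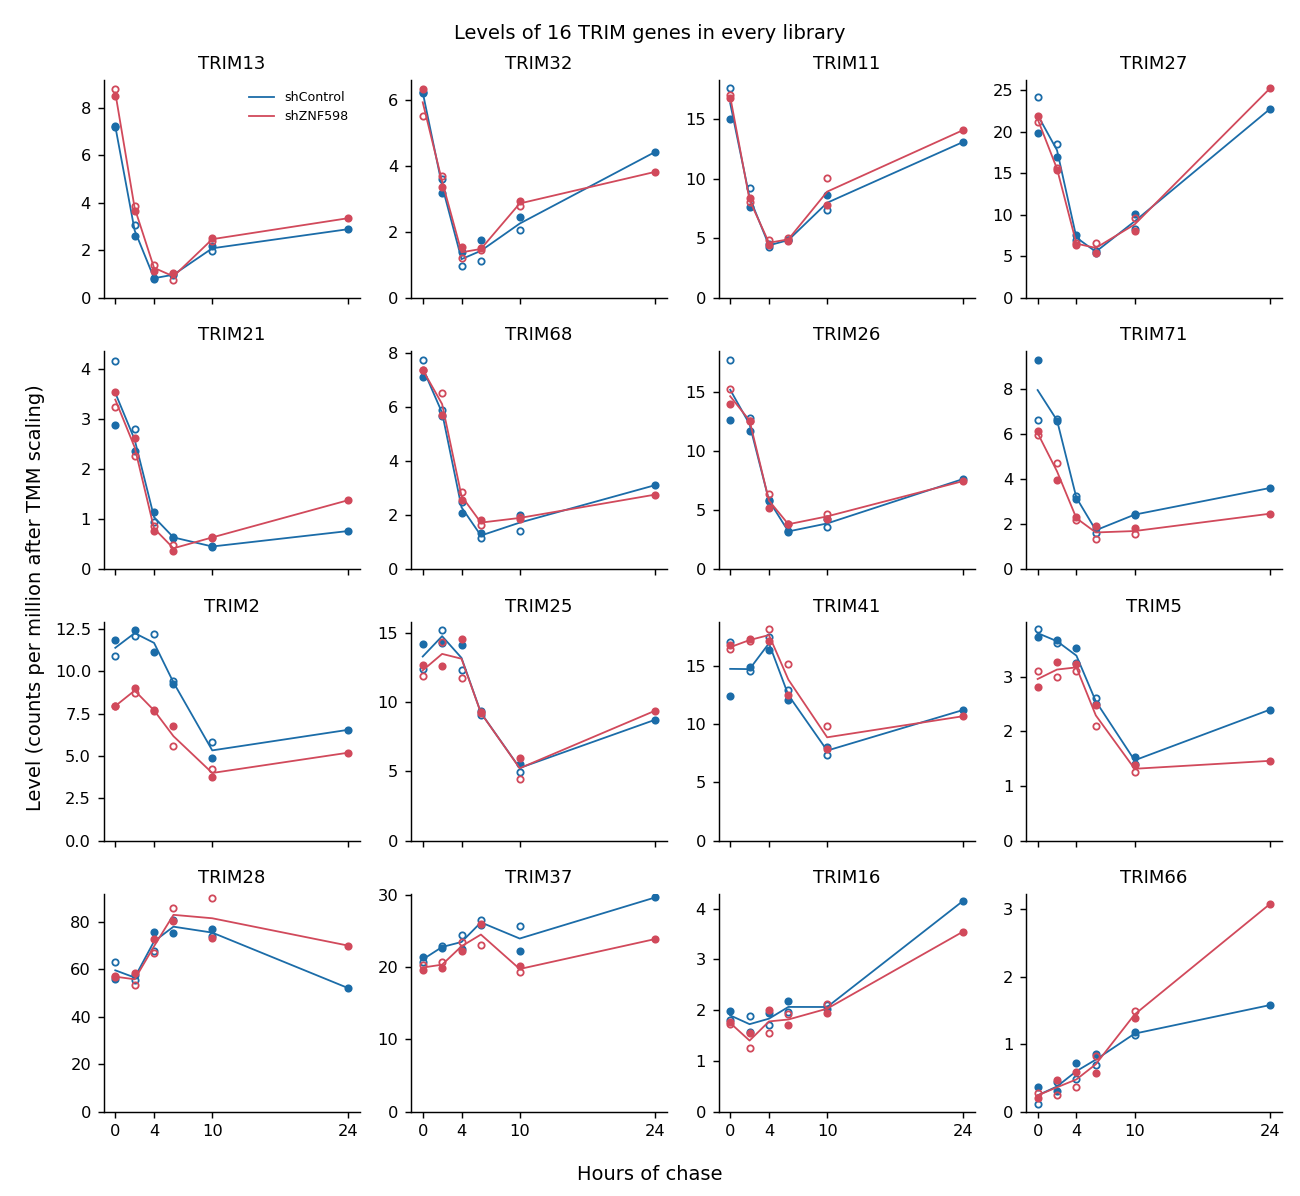
Level of 16 TRIM genes (y axis, CPM after TMM scaling, each panel on its own scale from 0) over hours of chase (x axis), with filled circles for replicate 1, open circles for replicate 2 and lines through the means of each hairpin; 24 h has 1 library per hairpin. The top row (TRIM13, TRIM32, TRIM11, TRIM27) is higher at 10 h than at 4 h under TMM scaling, and TRIM2 is lower in shZNF598 at each time.

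By domain class, 15 of 16 members listed with a RING finger and a PRY-SPRY domain had a negative called slope in shControl and 15 in shZNF598. Their median slopes were -0.146 and -0.143, and 41.5% and 38.8% of all genes had a negative call. All 4 NHL-domain members (TRIM2, TRIM3, TRIM32, TRIM71) had a negative called slope in shControl and 3 did in shZNF598, where TRIM32 did not pass (-0.109, adjusted p = 0.0885). The 4 members with a PHD finger and bromodomain split, with TRIM24 and TRIM33 negative (-0.116 and -0.0939 in shControl) and TRIM28 and TRIM66 positive under TMM. TRIM24 and TRIM33, like TRIM28, are nuclear transcriptional cofactors. None of the 3 members listed in the class without a RING finger (TRIM14, TRIM16, TRIM44) had an early call. In the PRY-SPRY class 13 of 16 were lower early, beside 32.3% of all genes lower and 31.9% higher. Each member was listed in 1 class only, and no protein sequence was read to check for RING fingers. TRIM14 and TRIM16 were thus not counted in the PRY-SPRY class, whatever their C-terminal domain. In the class without a RING finger, 2 of 3 had a negative called slope in each hairpin, and TRIM16 had none. TRIM66, which was called higher early, was listed with the PHD finger and bromodomain class. Differences between classes were not tested.

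At 24 h, with 1 library per hairpin and no test, 34 of 37 members were above their mean of 10 h in both hairpins, beside 48.9% of all genes. At least 1.5-fold higher in both were 16 members, beside 19.5% of all genes. TRIM27 was at 22.8 CPM in shControl and 25.3 in shZNF598, 2.47 and 2.86 times its mean of 10 h and within or just above the range of its libraries of 0 h. TRIM9, a neuronal ligase, was at 3.60 and 2.18 times its mean of 10 h. TRIM28 was lower in both, at 0.691 and 0.859 times. These shares rest on the shallower 24 h libraries.

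Apparent half-lives, from DESeq2 changes against 0 h and the time window of best fit, were obtained in both hairpins for 23 members with an R² above 0.9 and a half-life below 24 h. They have no spike-in correction and are relative to the bulk. Over these genes the medians were 3.40 h (shControl) and 3.55 h (shZNF598), beside 3.88 and 3.97 h over the 3128 genes that met the same rule. In shControl TRIM13 had the shortest (1.31 h, and 1.485 h in shZNF598), followed by TRIM32 (1.71 and 1.99 h), TRIM11 (2.19 and 2.24 h), TRIM68 (2.29 and 2.78 h) and TRIM21 (2.37 and 1.94 h). The longest in shControl were TRIM62 (8.71 and 7.32 h) and TRIM9 (7.46 and 9.36 h). In shZNF598 TRIM13 was again shortest, and TRIM9 and TRIM56 (8.37 h) were longest. Half-lives were longer in shZNF598 for 14 of the 23, beside 1698 of the 3128 genes, with a median ratio of 1.065 beside 1.02 over all genes. The window was chosen in each hairpin separately, so some ratios compare unlike spans. For TRIM62 it was 0 to 4 h in shControl and 0 to 6 h in shZNF598. The largest ratio was that of TRIM56, an antiviral ligase (4.47 and 8.37 h, ratio 1.87), which had no called difference in slope.

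**Figure D4:**
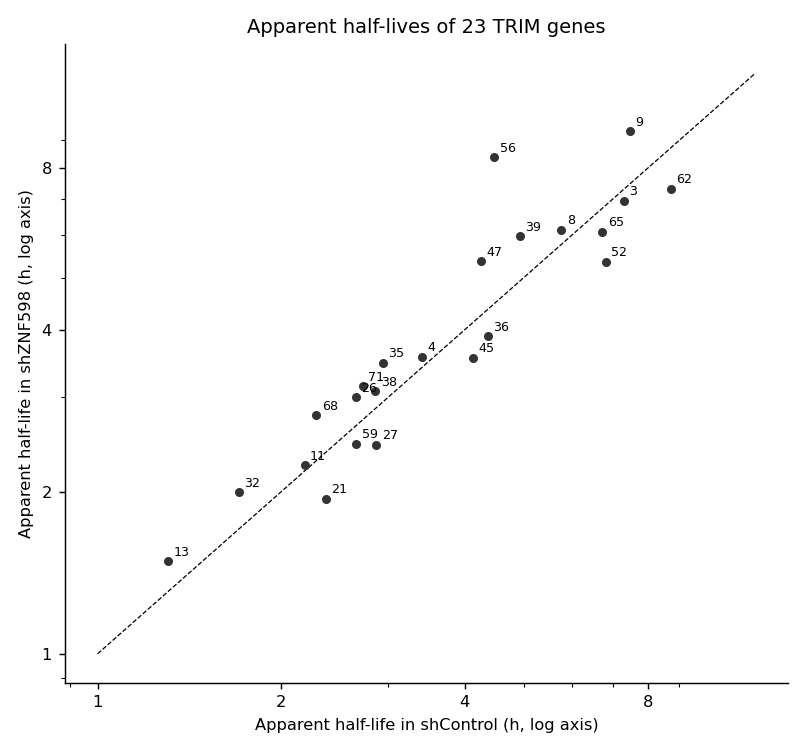
Apparent half-life of 23 TRIM genes in shControl (x axis, hours, log scale) and shZNF598 (y axis, hours, log scale), with gene numbers without the prefix TRIM and a dashed line of equality. Points lie on both sides of the line, 14 of 23 above it, and TRIM56 lies farthest from it.

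The knockdown left the slopes of the members without a called change. The difference in slope, shZNF598 minus shControl, passed in 0 of 37 members, and in 0 at an unadjusted p below 0.05. Over all genes 0.0% were called higher and 0.0662% lower. By DESeq2, which called 50 genes, and by a linear trend of the group means, added after seeing the data, which called 63, there were 0 members as well. The median difference was 0.0150 per hour over the members, of which 29 were above 0, and 0.000577 over all genes, of which 7694 of 15111 were above 0. The highest were TRIM9 (0.0537, 95% interval -0.0123 to 0.120), TRIM21 (0.0416, -0.0989 to 0.182) and TRIM56 (0.0412, -0.0378 to 0.120). The lowest were TRIM59, a membrane-anchored ligase (-0.0418, -0.140 to 0.0564), TRIM37 (-0.0156, -0.0548 to 0.0235) and TRIM65 (-0.0128, -0.0638 to 0.0382). For TRIM13 the interval ran from -0.216 to 0.199, so that for a gene whose course is not straight a wide range of differences was not detectable.

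TRIM56 was at 5.42 and 4.83 CPM in shControl and 5.12 and 4.22 in shZNF598 at 0 h, 3.74 and 3.52 against 4.09 and 4.03 at 2 h, 2.67 and 2.62 against 3.26 and 3.05 at 4 h, 2.44 and 1.46 against 2.203 and 2.304 at 6 h, and 2.49 and 2.103 against 2.61 and 3.25 at 10 h. The groups did not overlap at 2, 4 and 10 h, where shZNF598 was higher, and overlapped at 0 and 6 h. Its mean level did not pass the test, and neither did its slope difference. With 2 libraries per group, non-overlap at single times was not tested. The share of all genes without overlap at a given time is not shown, here or for the other members.

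The levels at 0 h, before any chase, were lower in shZNF598 for 1 member, against 0.536% of all genes, and higher for 0, against 0.139%. This was TRIM2, an NHL-domain ligase of neurons. Its level was 11.9 and 10.9 CPM in shControl and 7.95 and 7.96 in shZNF598, a change of -0.52 (SE 0.118, adjusted p = 0.0348). The call was lost without shControl 0 h replicate 1 (adjusted p = 0.102), shZNF598 0 h replicate 1 (0.297) or 2 (0.367), or either shControl library of 2 h (0.0599), and in the 4 libraries of 0 h alone (0.501). Without shControl 0 h replicate 2, 3 members were called. The next lowest, TRIM47 (-0.44, adjusted p = 0.444) and TRIM9 (-0.41, adjusted p = 0.341), and the highest, TRIM13 (0.26, adjusted p = 0.475), TRIM59 (0.23, adjusted p = 0.49) and TRIM45 (0.21, adjusted p = 0.75), did not pass. At an unadjusted p below 0.05 there were 7 of 37 members, beside 1661 of 15111 genes.

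TRIM59 was at 8.13 and 7.46 CPM in shControl and 9.002 and 9.25 in shZNF598 at 0 h, 4.299 and 4.83 against 4.61 and 5.03 at 2 h, 2.49 and 2.78 against 2.75 and 2.83 at 4 h, 2.55 and 2.21 against 2.64 and 2.701 at 6 h, and 2.85 and 2.62 against 2.48 and 2.17 at 10 h. Its shZNF598 libraries were above those of shControl at 0 and 6 h and below them at 10 h. TRIM45 was at 1.796 and 2.23 CPM in shControl and 2.03 and 2.62 in shZNF598 at 0 h, 1.57 and 1.51 against 1.59 and 1.79 at 2 h, 0.956 and 0.824 against 0.895 and 1.12 at 4 h, 0.765 and 0.708 against 0.535 and 1.08 at 6 h, and 1.44 and 1.32 against 1.89 and 1.68 at 10 h. Its groups did not overlap at 2 and 10 h, where shZNF598 was higher. TRIM9 was at 2.02 and 2.16 CPM in shControl and 1.46 and 1.68 in shZNF598 at 0 h, 1.797 and 1.76 against 1.28 and 1.47 at 2 h, 1.38 and 1.39 against 1.11 and 1.08 at 4 h, 0.847 and 0.854 against 0.755 and 0.851 at 6 h, and 0.968 and 0.701 against 0.847 and 0.938 at 10 h. It was lower in shZNF598 at 0, 2 and 4 h and overlapped at 6 and 10 h. Over all times its change was -0.22 (adjusted p = 0.0573), which passed without shControl 10 h replicate 2 (adjusted p = 0.0292), under library totals (0.0472) and at a mean of at least 1 CPM (0.048).

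Averaged over 0 to 10 h, with 10 libraries per hairpin, 10 of 37 members differed between the hairpins. TRIM13, TRIM35, TRIM14, TRIM39 and TRIM4 were higher in shZNF598, 13.5% of the members against 13.7% of all genes, and TRIM2, TRIM71, TRIM65, TRIM5 and TRIM37 were lower, 13.5% against 11.1%. The shares were near those of all genes, and the median of the members was 0.01 beside 0.02. No member changed as much as 1.5-fold.

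**Figure D5:**
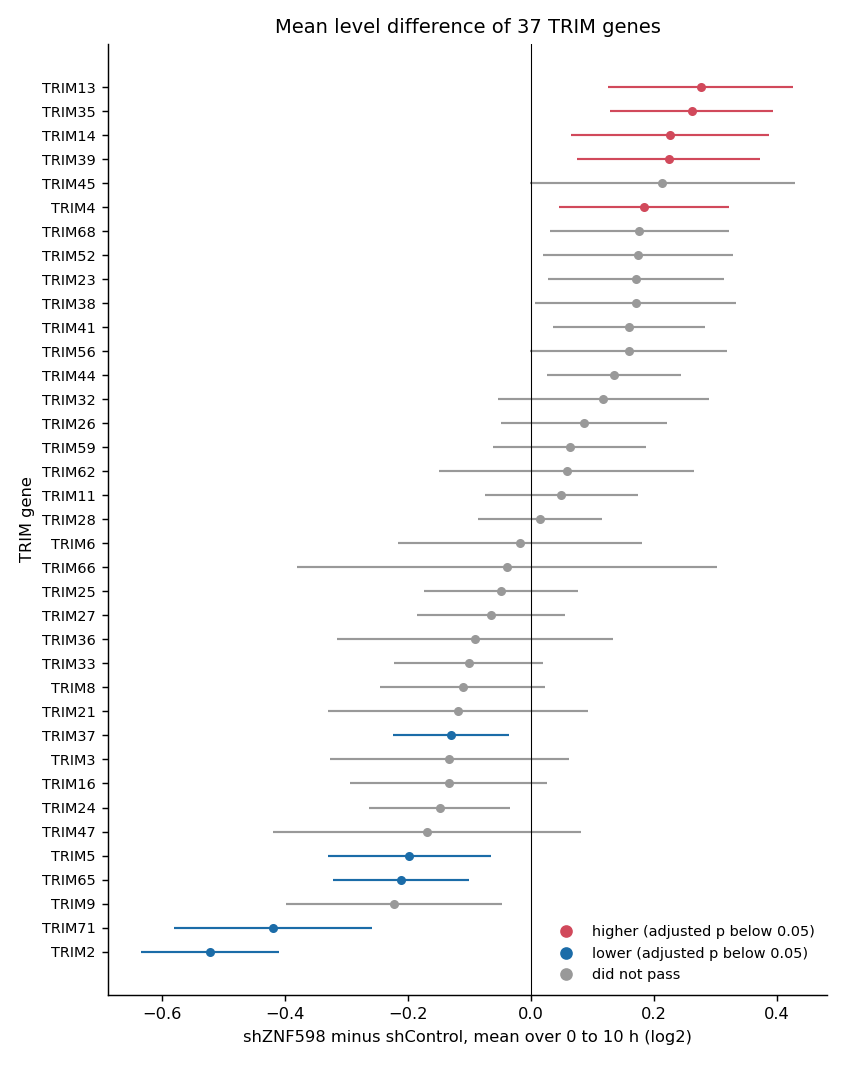
Difference in mean level over 0 to 10 h, shZNF598 minus shControl (x axis, log2), for 37 TRIM genes with 95% intervals from the edgeR fit, coloured by the adjusted p. The 5 called higher run from 0.18 (TRIM4) to 0.28 (TRIM13) and the 5 called lower from -0.13 (TRIM37) to -0.52 (TRIM2).

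TRIM2 had the largest difference, -0.52 (SE 0.0544, adjusted p = 1.45e-07), lower in shZNF598 at each of the 5 times. It was at 11.9 and 10.9 CPM in shControl and 7.95 and 7.96 in shZNF598 at 0 h, 12.5 and 12.1 against 9.004 and 8.74 at 2 h, 11.2 and 12.2 against 7.72 and 7.67 at 4 h, 9.27 and 9.43 against 6.75 and 5.596 at 6 h, and 4.86 and 5.81 against 3.74 and 4.26 at 10 h. The groups did not overlap at any time. Of its 11 isoforms in the files, 8 were tested in a fit of all transcripts and all 8 were called lower, with changes of -0.71 to -0.52. These isoforms share reads and are not independent. The row, ENST00000338700.10 at chr4:153204443-153339317 on the plus strand (GRCh38, 12 exons), shares 2251 exon bases with the same-strand gene ENSG00000288637, so reads there cannot be told apart. The slopes of TRIM2, -0.115 and -0.110, differed by 0.00503 (95% interval -0.0554 to 0.0655).

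TRIM71 had a change of -0.42 (SE 0.0781, adjusted p = 0.000364). It was at 9.27 and 6.603 CPM in shControl and 6.13 and 5.93 in shZNF598 at 0 h, 6.56 and 6.63 against 3.96 and 4.71 at 2 h, 3.09 and 3.24 against 2.32 and 2.19 at 4 h, 1.83 and 1.62 against 1.92 and 1.34 at 6 h, and 2.46 and 2.38 against 1.84 and 1.54 at 10 h. The groups overlapped at 6 h and at no other time. Its slope of -0.198 in both hairpins was among the steepest, and the 95% interval of the difference ran from -0.0932 to 0.0928. Its early change was -1.37 by 4 h, averaged over the hairpins, and 27 of 37 members were called lower early. Of the members with 1 let-7 seed match, TRIM13, TRIM38 and TRIM65 were called lower early and TRIM41 was not. Whether the 6 matches of the TRIM71 3′ UTR bear on its fall was not tested.

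Of the others that were lower, TRIM65 changed by -0.21 (adjusted p = 0.00547). It was at 22.3 and 28.96 CPM in shControl and 23.1 and 23.3 in shZNF598 at 0 h, 24.4 and 24.1 against 22.9 and 21.8 at 2 h, 17.6 and 19.1 against 14.5 and 14.7 at 4 h, 10.7 and 12.3 against 10.3 and 9.602 at 6 h, and 8.65 and 9.31 against 7.06 and 7.96 at 10 h. The groups overlapped at 0 h only. TRIM5 changed by -0.20 (adjusted p = 0.0264), and its call was lost without the 0 h libraries (adjusted p = 0.134) and with no filter (0.126). Without shZNF598 0 h replicate 1, shZNF598 2 h replicate 2, shControl 4 h replicate 1, shZNF598 6 h replicate 2 or shControl 10 h replicate 1 it was also lost (adjusted p of up to 0.0629). TRIM5 was at 3.73 and 3.87 CPM in shControl and 2.81 and 3.11 in shZNF598 at 0 h, 3.68 and 3.62 against 3.28 and 2.99 at 2 h, 3.52 and 3.25 against 3.24 and 3.11 at 4 h, 2.499 and 2.603 against 2.49 and 2.1 at 6 h, and 1.54 and 1.402 against 1.38 and 1.25 at 10 h. It was lower in shZNF598 without overlap at each time. It shares 382 exon bases with another gene on the same strand. TRIM37 changed by -0.13 (adjusted p = 0.0384), and its call was lost on leaving out any of 13 of the 20 libraries (adjusted p of up to 0.0904), with no filter (0.162) and with all transcripts (0.0568).

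Of those that were higher, TRIM13 changed by 0.28 (SE 0.0731, adjusted p = 0.00784), with the values given above, which did not overlap at 0, 2, 4 and 10 h. TRIM35, a PRY-SPRY ligase, changed by 0.26 (SE 0.0643, adjusted p = 0.00466). It was at 5.36 and 6.25 CPM in shControl and 6.74 and 6.49 in shZNF598 at 0 h, 3.84 and 4.37 against 5.09 and 4.42 at 2 h, 2.15 and 2.19 against 2.83 and 2.78 at 4 h, 2.01 and 1.87 against 2.53 and 2.42 at 6 h, and 2.698 and 2.72 against 2.74 and 3.49 at 10 h. Both shZNF598 libraries were above both shControl libraries at each of the 5 times. TRIM2, TRIM71, TRIM65, TRIM13 and TRIM35 kept their calls under all 29 alternatives tried, left-out libraries included. In the fit of all transcripts, 1 of 5 isoforms of TRIM13 and 2 of 3 of TRIM35 were called higher, and 2 of 6 of TRIM65 and the single one of TRIM71 lower.

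The calls of the other 3 were less stable. TRIM14, a scaffold of antiviral signalling, changed by 0.23 (adjusted p = 0.0363). It was at 4.41 and 3.65 CPM in shControl and 4.21 and 4.41 in shZNF598 at 0 h, 3.58 and 3.83 against 4.24 and 4.14 at 2 h, 3.98 and 3.06 against 5.05 and 3.59 at 4 h, 2.98 and 2.77 against 3.38 and 3.496 at 6 h, and 2.28 and 1.62 against 2.56 and 2.26 at 10 h. The groups did not overlap at 2 and 6 h, where shZNF598 was higher. Its call was lost on leaving out any of 12 libraries (adjusted p of up to 0.108) and under library totals (0.0584). TRIM39, a regulator of the anaphase-promoting complex, changed by 0.22 (adjusted p = 0.0261) and lost its call for 7 libraries (up to 0.082). It was at 4.33 and 5.13 CPM in shControl and 5.495 and 4.57 in shZNF598 at 0 h, 4.04 and 3.77 against 4.902 and 3.92 at 2 h, 2.42 and 2.46 against 2.79 and 3.24 at 4 h, 1.77 and 2.33 against 2.34 and 2.59 at 6 h, and 2.51 and 2.18 against 2.79 and 2.86 at 10 h. The groups did not overlap at 4, 6 and 10 h. It shares 1246 exon bases with the readthrough gene TRIM39-RPP21. TRIM4, a ligase of RIG-I, changed by 0.18 (adjusted p = 0.0472), lost its call for 14 libraries (up to 0.124), and did not pass by DESeq2 (0.0605), under library totals (0.0738), with no filter (0.115) or without the 0 h libraries (0.0549). It was at 6.44 and 6.32 CPM in shControl and 6.32 and 7.26 in shZNF598 at 0 h, 4.396 and 5.17 against 5.04 and 5.24 at 2 h, 2.501 and 2.404 against 3.003 and 2.87 at 4 h, 2.01 and 1.81 against 2.67 and 2.69 at 6 h, and 2.96 and 2.18 against 2.77 and 2.29 at 10 h. The groups did not overlap at 4 and 6 h.

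Of 8 TRIM genes listed as induced by interferon, 5 were members (TRIM5, TRIM14, TRIM21, TRIM25, TRIM38). All 5 had a called negative slope in both hairpins, beside 41.5% and 38.8% of all genes. In mean level TRIM14 was called higher and TRIM5 lower, beside 13.7% and 11.1% of all genes. Of 10 interferon-stimulated genes outside the family 4 were measured, and IFI6 (0.36) and IFIT1 (0.36) were higher in shZNF598. TRIM22, which interferon induces strongly, was below the limit at 0.0515 CPM.

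Family members with other symbols were read in the same way. MID1 and MID2, which bind microtubules through a COS domain, were lower in mean level in shZNF598, with changes of -0.36 (SE 0.0538, adjusted p = 2.88e-05) and -0.33 (SE 0.0582, adjusted p = 0.000193), and PML (0.05) did not pass. MEFV was not among the genes tested. Of 12 E2 enzymes, the partners of RING fingers, 2 were lower (UBE2D3, -0.41, and UBE2E1, -0.22) and 0 higher. Over all genes these shares were 11.1% and 13.7%. A called negative slope in shControl was found for 10 of the 12, beside 41.5% of all genes. Of 9 partners of TRIM28 in gene silencing, CBX1 (-0.22) and CBX3 (-0.15), heterochromatin proteins, were lower. In shControl under TMM, 5 of these partners had a called positive and 2 a called negative slope, beside 31.1% and 41.5% of all genes. None of these genes had a called difference in slope.

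The RNF genes, another family of RING-finger ligases, were read beside them. Of 64 at or above the same limit, 47 had a called negative slope in shControl and 8 a positive one, with a median of -0.134, and in shZNF598 the counts were the same, with a median of -0.122. These are 73.4% and 12.5%, beside 41.5% and 31.1% of all genes in shControl and 38.8% and 30.4% in shZNF598. In mean level 13 RNF genes were higher (20.3%, beside 13.7% of all genes) and 6 lower (9.38%, beside 11.1%). None differed in slope. From 0 to 4 h, 67.2% of the RNF genes were lower and 20.3% higher, beside 32.3% and 31.9% of all genes. The median change was -0.5501. From 4 to 10 h, 57.8% were lower and 25.0% higher, beside 38.8% and 35.7%, with a median of -0.3577. A fall in both spans was thus seen in this family too. The families were not tested against each other.

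Sequence features the selection did not use were set beside the slopes as a description. Over the 32 version-matched members the mean slope of both hairpins had a Spearman correlation of -0.0652 with 3′ UTR length, -0.0367 with the number of ATTTA pentamers in it, and 0.051 with the GC content of the wobble positions of codons. Over 9675 protein-coding genes these were -0.297, -0.273 and 0.119. Genes are not independent replicates, and base composition and length go with one another. ATTTA was found in 84.4% of the member 3′ UTRs and in 74.4% of all. TRIM44 held 30, the most among members, in 11622 bases, with a slope in shControl of -0.0592.

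The member with the lowest slope, TRIM21, and the most abundant one, TRIM28, each held a single ATTTA, in capitals below, and both are shown because their counts of these letters were equal. TRIM21 (ENST00000254436.8, 7 exons, minus strand) has a 3′ UTR of 388 bases and TRIM28 (ENST00000253024.10, 17 exons, plus strand) one of 162. Both windows lie in the 3′ UTR in GRCh38 and are written in the direction of the transcript.
TRIM21, chr11:4384897-4384922: taaaaaataaaATTTAaaaaactgtg
TRIM28, chr19:58550682-58550708: tacttctgtggATTTAataaaaacttc

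Of the members, 16 share exon bases with another annotated gene, 8 of them on the same strand and 11 on the opposite strand. TRIM47 shares 925 and TRIM52 1776 bases with a lncRNA on the opposite strand. The sources used here do not say whether strand was used in counting, so reads of such pairs cannot be told apart.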

How the data were processed

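BrU-labelled RNA was sequenced in 22 libraries, 12 groups in all. The authors trimmed reads with fastp, removed reads of noncoding RNA, aligned the rest with STAR 2.7.0a to hg38 with GENCODE release 32 (1 locus per read) and used featureCounts to count reads over each transcript. What they deposited is a table of raw counts for each library, with the length of the transcript in codons. The submitters' processing notes also name CASAVA 1.8. Spike-ins were left aside, and slopes and half-lives are therefore relative to the bulk of labelled RNA.

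Identifiers were named with GENCODE release 44 (GRCh38), which matched 92.2% of 227264 with their version and 98.4% without it. The rest, with 2.24% of the counts, entered only the library totals. Counts were fitted with edgeR 4.0.16 in R 4.3.3 (TMM scaling, quasi-likelihood test, Benjamini-Hochberg adjustment over all 15111 genes, threshold 0.05) on the 20 libraries of 0 to 10 h. The TMM factors of these fits were computed over all 22 libraries, while most edgeR alternatives computed them over the libraries they used. A model with 1 mean per group gave levels and the early and late changes, and a model with shRNA, hours and their product gave slopes. Each SE was the size of the estimate over the root of its F statistic. Half-lives used DESeq2 1.42.0 on all 22 libraries. Correlations and tables were made in Python 3.11.15. On simulated counts for the same 15111 genes, 92.5% of 200 genes with a slope difference of 0.15 were recovered. Of 200 genes with a log2 change of 1 at 0 h, 81% were recovered. These shares hold for the simulated counts only, and recovery at the spread of the real libraries was not tested. In the real libraries the SE of the slope difference had a median of 0.0379 over the members.

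The members and gene lists were chosen with earlier results of these data known. Values per library are given for members past the threshold in level or slope difference, the 3 highest and 3 lowest in each, the 4 highest and 4 lowest slopes in shControl and the 4 highest levels at 0 h. Others were chosen after their values were seen. Alternatives were other scalings, filters, rows per gene, tests and time windows, the replicate block, and each library left out. One marker of the cell line is not reported here.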

Additional observations from a re-analysis of the deposited data

Results flagged for a closer look

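In 4 of 37 members, both shZNF598 libraries lay above both shControl libraries at 1 or more chase times and below both at another. This was so for 18.5% of all 15111 genes, and the difference between times was not tested. TRIM21 differed by -0.354 at 4 h and -0.603 at 6 h and by 0.484 at 10 h (log2 of the ratio of the means, shZNF598 over shControl). TRIM24 differed by -0.316 at 0 h, -0.223 at 2 h and -0.2 at 4 h, and by 0.137 at 6 h. TRIM47 differed by -0.443 at 0 h, -0.309 at 4 h and -0.388 at 10 h, and by 0.424 at 6 h. TRIM59 differed by 0.228 at 0 h and 0.167 at 6 h and by -0.239 at 10 h.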

How the results depend on the processing

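The number of members called at 0 h was 1 as reported, 0 with all transcripts and with the 0 h libraries alone, and 0 to 3 on leaving out 1 library. In mean level it was 10, and 6 to 12 on leaving out 1 library, with 6 without shZNF598 0 h replicate 1, shZNF598 2 h replicate 1 or 2, or shZNF598 6 h replicate 2. Called slopes were 32 in shControl and 31 in shZNF598. They were 5 and 5 over 0 to 24 h, and 23 to 34 and 20 to 31 on leaving out 1 library or 1 replicate number. Slope differences remained at 0 calls under each alternative. Over all genes, the calls at 0 h were 102, against 227 with no filter (39270 genes), 332 with all transcripts (96402), 1 in the 0 h libraries alone, and 13 to 577 on leaving out 1 library of 0 h. Slope differences were 10, against 50 by DESeq2, 63 by the linear trend, 77 with all transcripts, 5 with no filter, 4 over 0 to 6 h or without the 0 h libraries, and 0 over 0 to 4 h and 0 to 24 h. Slopes were 10960 and 10467, against 6835 and 6759 over 0 to 4 h and 4385 and 4158 over 0 to 24 h. With all transcripts they were 67743 and 64710, and 19183 instead of 3750 in mean level, 53296 instead of 9706 in the early and 66967 instead of 11267 in the late change. Library totals, the linear trend, the fits without 0 h and all alternatives of the early and late changes were chosen after seeing the data. Reliable half-lives were 23, 1 with a fixed window of 0 to 10 h and 15 with 0 to 4 h. Of named values, the slopes in shControl of TRIM16 (-0.0569), TRIM28 (-0.0330) and TRIM37 (-0.0573) turned negative under library totals, TRIM16 (-0.0163) over 0 to 4 h and TRIM28 (-0.002455) over 0 to 24 h. None of the slope differences that turned was called in any fit. These were TRIM9 (-0.00359) and TRIM65 (0.02475) over 0 to 24 h, TRIM21 over 0 to 4 h (-0.0601) and 0 to 6 h (-0.0876) and without shZNF598 10 h replicate 1 (-0.0195), TRIM37 over 0 to 4 h (0.0228) and 0 to 6 h (0.00507) and without replicate 2 (0.00346), and TRIM65 without shControl 0 h replicate 1 (0.000358) and without replicate 1 (9.77e-05). The cause was not tested. On leaving out 1 library or replicate number these ranged from -0.0195 to 0.0716 (TRIM21), -0.0352 to 0.00346 (TRIM37) and -0.0275 to 0.000358 (TRIM65). Of 1375 values of single genes under alternatives, 1268 kept direction and call, 82 lost a call, 10 gained one and 15 turned.

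The replicate numbers were not taken as pairs, since the libraries share only a number and did not deviate together at every time. The correlation of same-numbered deviations between the hairpins was -0.00663 at 0 h, 0.152 at 2 h, 0.424 at 4 h, 0.415 at 6 h and -0.317 at 10 h. With the replicate block, 12 members were called in mean level instead of 10, 1 at 0 h, 32 and 31 in the slopes and 0 in the slope difference.

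The lowest members rest on few reads, 6 of 37 with a mean under 100 a library, and the 24 h libraries are single and shallower.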
